A study of Arabidopsis thaliana with 12 samples.

Results

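The response of Arabidopsis thaliana seedlings to 3 days on the synthetic auxin NAA (1-naphthaleneacetic acid) was measured by comparing the 3 arrays of seedlings moved to NAA with the 3 arrays of seedlings moved to plain medium, all without antimycin A. These 6 arrays, of 12 in all, were chosen by their sample titles, and the comparison runs over 22746 probe sets of the ATH1 array, a set of short probes standing for 1 transcript. All seedlings were Col:LUC plants, a line in the Col-0 ecotype whose construct the labels do not describe. They grew for 10 days on B5, a standard plant culture medium, and were then kept for 3 days on fresh plates of B5 alone or of B5 with 4.5 µM NAA. The other 6 arrays came from seedlings of the same media that were given 50 µM antimycin A for 3 hours. Antimycin A blocks the cytochrome pathway of plant respiration at complex III. These arrays serve here as a second measurement of the NAA effect. They also entered the same fit and so helped set the spread behind each test. The labels call the samples biological triplicates of seedlings. The sources used here do not say whether a sample pooled several plates, nor whether a solvent was added to the untreated plants.

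Auxin binds nuclear TIR1/AFB receptors, which mark the Aux/IAA repressors for destruction and so free the ARF transcription factors to switch on target genes. Among these targets are the Aux/IAA genes themselves, the GH3 enzymes that remove free auxin by joining it to amino acids, and the LBD factors that start lateral roots. NAA enters cells largely by diffusion, and in seedlings auxin is known for promoting lateral roots and root hairs and for loosening cell walls.

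The deposited values are linear intensities, and a level below is such an intensity on 1 array or the mean ± SD of 3 arrays. Differences are on the scale log2(value + 16), NAA minus B5, with the SE of the fit, so that a difference of 1 is close to a doubling for bright transcripts and understates the change of dim ones. Array medians were 35.2 to 36.2 on B5 and 38.8 to 39.7 on NAA. Arrays of 1 group correlated at 0.99 or above (0.994 to 0.997 among B5, 0.99 to 0.995 among NAA), and pairs of a B5 and an NAA array at 0.967 to 0.977. NAA array 2 stood apart in the control probe sets that compare the 3' with the 5' end of long transcripts. Its ratio for GAPDH was 48.9, against 17.3 and 13.5 on the other NAA arrays and 9.24 to 13.9 on B5, and its ratio for actin was 46.4, against 10.6 to 18.1 on the other NAA arrays and 9.33 to 16.9 on B5. The main counts are therefore also given without that array. Roots and leaves both gave signal, though not every tissue could be followed. On B5 the root hair genes EXPA7 and EXPA18 had means of 28.6 and 129. The leaf factors YAB3 and YAB5 had 50.6 and 90.9, and RCA, a gene of photosynthesis, had 12132. Of 3 secondary wall and xylem genes 2 stayed below 16 on all 6 arrays, as did both measured genes of a seed and pollen list. For a suberin and endodermis list no gene name was matched. A gene counts as measured here where its name or locus code matched a probe set of exactly 1 named gene. Genes on probe sets without a name here are missed by the lists.

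The response was broad, with a long tail of rises and a short tail of falls. In the linear model of limma fitted to all 12 arrays, 4637 of the 22746 probe sets (20.4%) passed an adjusted p below 0.05, 2437 of them higher (10.7%) and 2200 lower (9.67%) on NAA. At least a 2-fold difference on the log2(value + 16) scale was reached by 538 of the higher and 537 of the lower probe sets. Beyond 4-fold the counts were 117 and 6, and beyond 8-fold 32 and 0. Without NAA array 2 the calls numbered 3909, with 2083 higher and 1826 lower. A fit of only the 6 arrays without antimycin A gave 3893 calls, 2021 higher and 1872 lower. Centring each array on its median, which differed by 0.09 between the media, gave 2136 higher and 9866 lower calls, so small falls of dim transcripts are not described here. The share of probe sets called grew with the mean level, from 4.04% below an intensity of 16 to 41.3% at 1024 and above. Of the probe sets called, 2142 carry no gene name here. Over genes with 1 name, each represented by its brightest probe set, 1293 of 13350 (9.69%) were called higher and 1123 (8.41%) lower. These shares are the background for the gene lists below. Most lists were matched by symbol or synonym, and among the 1483 genes with a symbol the shares were larger, 12.6% higher and 11.5% lower. The 3 NAA and 3 B5 arrays did not overlap for 37.2% of the 13350 genes, called or not, and for 39.3% of probe sets. A lack of overlap alone was therefore common.

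**Figure D1:**
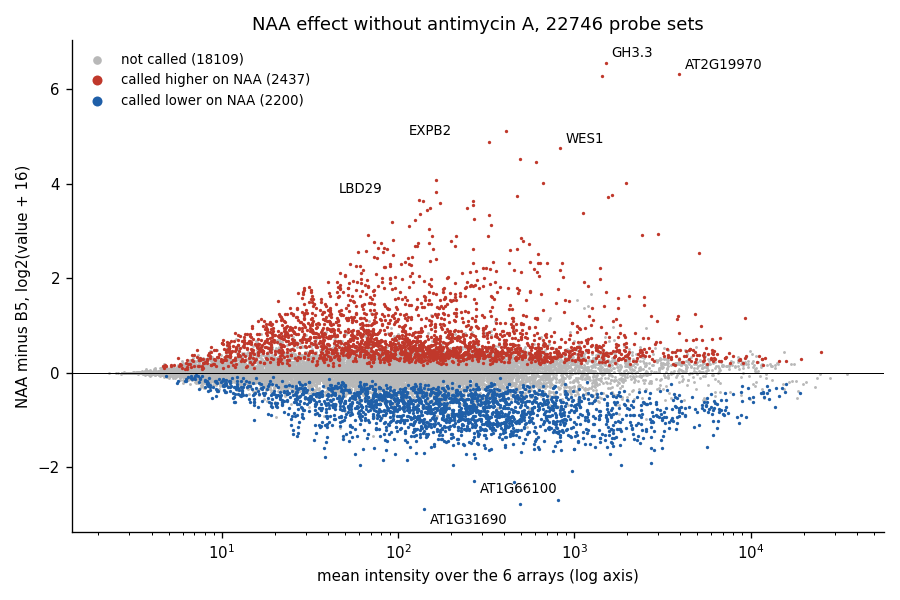
Difference between NAA and B5 on the log2(value + 16) scale against the mean intensity of the 6 arrays (log axis), 1 point per probe set. The 2437 probe sets called higher reach a difference of 6.57, while the 2200 called lower end at a smaller distance from 0.

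Auxin inactivation gave the largest named rise. GH3.3, an enzyme that joins auxin to amino acids, read 11.0, 12.7 and 25.6 on the B5 arrays and 3281, 2889 and 2840.0 on the NAA arrays. It was nearly silent on B5 and bright on NAA, with a log2 difference of 6.57 ± 0.20 (adjusted p = 3.66e-07, limma). WES1, which is GH3.5 and does the same work, stood at 35.5, 47.2 and 49.3 on B5 and at 1700.3, 1249 and 1901 on NAA. The groups lay far apart, and the log2 difference was 4.75 ± 0.15 (adjusted p = 4.78e-07, limma). GH3.17 was already measurable on B5 (144, 89.5 and 83.2) and rose to 434, 391 and 392 on NAA, a log2 difference of 1.82. GH3.1 was dim throughout, near 4.2 on all B5 arrays and at 34.1, 10.7 and 32 on NAA. Its log2 difference of 0.99 had an adjusted p of 0.0206 (limma), which rose to between 0.0552 and 0.0793 when B5 array 1, 2 or 3 or NAA array 1 or 3 was left out. Of the 7 measured genes of auxin inactivation, 4 rose and none fell, with a median log2 difference of 0.99 against -0.01 over all genes. The 3 that were not called were GH3.9 and the auxin glucosyltransferases UGT74D1 and UGT84B1. UGT74D1 had means of 298 ± 8.56 on B5 and 257 ± 36.1 on NAA (SD, n = 3 each), and the other 2 stayed below 4 on all 6 arrays. The same 4 to 0 count was found without NAA array 2.

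Auxin synthesis could not be followed with the genes matched by name. The flavin monooxygenases YUC2, YUC4, YUC6 and YUC11 all read below 6 on every array of either medium, and none was called. Among the Aux/IAA repressors, 2 of the 7 measured genes rose and none fell, with a median log2 difference of 0.01, and 5 of the 7 stayed below 16 on all 6 arrays. IAA29 read 5.15, 5.0 and 5.14 on B5 and 31.3, 35.3 and 22.2 on NAA, so that its groups did not overlap (log2 difference 1.1 ± 0.10, adjusted p = 9.4e-05, limma). IAA30 was dimmer still, between 5.72 and 10.4 on B5 and between 12.4 and 15.9 on NAA, with a log2 difference of 0.35. IAA18, the 1 bright member, did not pass the test, with means of 228 ± 6.17 on B5 and 235 ± 14.8 on NAA (SD, n = 3 each). IAA20, IAA31, IAA33 and IAA34 lay between 3.32 and 7.51 on all 6 arrays. WAG2, a kinase that acts on PIN auxin carriers, read 7.25 to 12.1 on B5 and 15.9 to 32.9 on NAA. Its log2 difference of 0.61 had an adjusted p of 0.0289 (limma), which moved to between 0.0586 and 0.0981 without B5 array 2 or 3 or NAA array 1 or 2.

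Transcription factors of lateral root formation rose from near the dim end of the scale. LBD29, which acts directly under the auxin response factors of lateral root initiation, read 5.73, 5.63 and 5.68 on B5 and 273, 208 and 297 on NAA. Its log2 difference was 3.65 ± 0.10 (adjusted p = 2.27e-07, limma), and LBD16, its partner in the same step, had one of 0.97 ± 0.11, from 11.1, 11.3 and 11.2 to 44.9, 30.7 and 37.1. Both measured LBD genes were thus called, with no overlap between media. PUCHI, an AP2 factor of the lateral root primordium, read 8.06, 9.45 and 10.3 on B5 and 31.3, 36.4 and 36.0 on NAA. Its log2 difference of 1.00 ± 0.05 had an adjusted p of 6.16e-06 (limma). It was the 1 called gene of the 4 measured in the list of lateral root and root meristem genes, and the others, BBM, CR4 and SHI, overlapped between the media. HAT2, an auxin-induced homeodomain factor, read 129, 141 and 124 on B5 and 329, 356 and 356 on NAA, a log2 difference of 1.30 ± 0.07. GSO1, a receptor kinase of the root's Casparian strip, had means of 32.2 ± 8.93 on B5 and 100 ± 30.0 on NAA (SD, n = 3 each), and its log2 difference was 1.25.

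Cell division genes were called higher at a share near the background. Of 12 measured cell cycle genes, 1 was called higher (8.33%, against 9.69% of all genes) and none lower, 5 stayed below 16 on all 6 arrays, and the median log2 difference was 0.01. The called gene, SIM, encodes an inhibitor of cyclin-dependent kinases that promotes endoreplication, and it read 91.1, 92.5 and 77.8 on B5 and 241, 259 and 142 on NAA (log2 difference 1.12 ± 0.25, adjusted p = 0.0111, limma). AUR1 and AUR2, the Aurora kinases of mitosis, had log2 differences of 0.26 ± 0.10 and 0.24 ± 0.11 with adjusted p of 0.119 and 0.189 (limma). Of 7 histone genes, only HIS1-3, a linker histone known from drought, was called, at a log2 difference of 1.34.

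Cell wall and root hair genes held both strong rises and clear falls. EXPB2, a beta-expansin, read 8.10, 5.57 and 4.96 on B5 and 534, 550.0 and 876 on NAA, the largest rise among the measured expansins (log2 difference 4.88 ± 0.20, adjusted p = 1.13e-06, limma). EXPA7, the expansin of growing root hairs, stood at 38.2, 17.6 and 30.0 on B5 and at 170, 138 and 104 on NAA. EXPA18, also of root hairs, stood at 163, 107 and 117 on B5 and at 478, 330 and 422 on NAA. Neither gene's groups overlapped, and the log2 differences were 1.78 ± 0.19 and 1.56 ± 0.18. All 3 measured genes of the root hair list were called higher, also without NAA array 2. The third, SCN1, rose less than EXPA18. These 2, which passed a filter on a mean of at least 100, had a median log2 difference of 0.96. In RNA of bulk seedlings, more cells of a type and more RNA per cell cannot be told apart.

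Of 19 measured expansins, 6 rose and 3 fell, and the median log2 difference was -0.01. EXLB1, an expansin-like protein, rose from 183 ± 48.6 to 659 ± 52.5, and EXPA9 from 61.2 ± 14.6 to 118 ± 27.8 (SD, n = 3 each). EXPB3 went the other way, from 593, 601 and 499 on B5 to 261, 156 and 329 on NAA (log2 difference -1.19 ± 0.26, adjusted p = 0.0108, limma). EXPB1 fell by 0.72 on the log2 scale. EXPA8 read lower on each NAA array than on any B5 array, at 161, 192 and 116 against 646, 295 and 235, but did not pass the test (log2 difference -1.14, adjusted p = 0.0789, limma). Without NAA array 2, 5 expansins were called higher and 3 lower.

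Xyloglucan endotransglucosylases, which cut and rejoin wall polymers, had 4 of 10 called higher, 2 lower and a median of -0.06. The lower calls rested on single arrays, since 1 was left without B5 array 1 or 2 and 0 without B5 array 3. XTH19 read 340, 210 and 150 on B5 and 694, 707 and 485 on NAA. XTH18 read 47.7, 29.8 and 33.7 on B5 and 117, 137 and 83.9 on NAA, and the log2 differences were 1.42 ± 0.28 and 1.27 ± 0.21. XTH26 and XTH33 rose at lower levels, to means of 15.6 and 28.3 on NAA. GH9C1, an endoglucanase of family GH9, had a mean of 41.2 ± 13.8 on B5 and 221 ± 57.6 on NAA (SD, n = 3 each), a log2 difference of 2.05. HRGP1, a hydroxyproline-rich wall glycoprotein, went from 181, 186 and 235 to 812, 927 and 506. The SKU5-like multicopper oxidase gene sks16 rose from 12 ± 3.19 to 70.8 ± 16.3. Among the TBL proteins, a family of wall polysaccharide acetyltransferases, 6 of 23 rose and 1 fell. TBL36 was the brightest of those described, at 1165, 1051 and 786 on B5 and 2460.4, 2667 and 2548 on NAA (log2 difference 1.36 ± 0.13, adjusted p = 0.000111, limma), and TBL39 and TBL41 had log2 differences of 1.09 and 1.05. PME61, a pectin methylesterase, was the 1 called gene among 6 pectin genes and fell by 0.77 on the log2 scale. The families of GH9, SKU5-like and TBL genes were grouped after their values were seen, so their counts are descriptions. The same holds below for the SWEET, ATG8, serine carboxypeptidase-like, MADS box, plastid NADH dehydrogenase-like and thioredoxin genes, and for further families marked there.

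**Figure D2:**
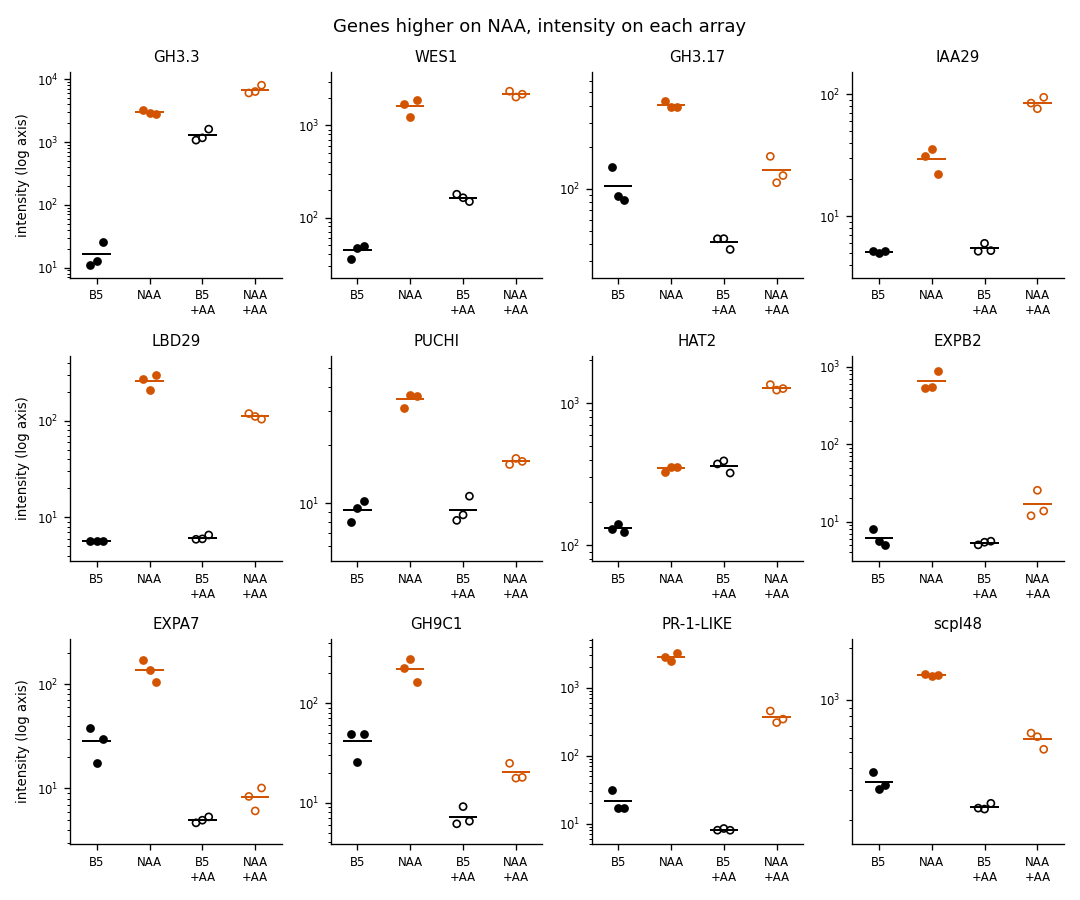
Intensity (log axis) of 12 genes higher on NAA on each array: filled points without and open points with antimycin A, black for B5 and orange for NAA, with a line at each group mean. In all 12 panels the filled NAA points lie above the filled B5 points, and EXPB2 falls back to 11.9 to 25.4 on NAA with antimycin A.

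Several rises fell outside auxin signalling and the wall. PR-1-LIKE (AT2G19990), named for a pathogenesis-related protein, read 30.9, 16.7 and 17.0 on B5 and 2847, 2461 and 3276 on NAA (log2 difference 6.27 ± 0.18, adjusted p = 2.27e-07, limma). AT2G19970, which has no symbol in the annotation used, rose as steeply, from 88.9, 64.9 and 90.4 to 7705, 6978 and 8668. AT2G19980, whose locus number lies between both, stayed at 4.34 to 7.08 on all 6 arrays. PDF2.5, a plant defensin, read 238, 147 and 148 on B5 and 2372, 2697 and 1141 on NAA, a log2 difference of 3.37 ± 0.33. CHI, which is a chitinase in this annotation, had means of 41.6 ± 15.7 on B5 and 189 ± 80.9 on NAA (SD, n = 3 each). The jasmonate and wounding list as a whole was mixed, with 2 of 25 called higher (8%) and 4 lower (16%), against 9.69% and 8.41% of all genes.

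Single genes of sugar export and phosphate release, and 3 of autophagy, were among the rises. SAG29, the sugar exporter SWEET15 known from senescing leaves, read 7.71, 10.7 and 9.90 on B5 and 187, 124 and 358 on NAA, so that its NAA arrays differed widely among themselves and all exceeded B5 (log2 difference 3.11 ± 0.34, adjusted p = 0.000268, limma). It was the 1 called riser among 16 SWEET genes (6.25%), of which 2 fell (12.5%), against 9.69% and 8.41% of all genes. SWEET17, a vacuolar fructose exporter, was among those that fell, from 452 ± 72.6 to 243 ± 15 (SD, n = 3 each). PAP20, a purple acid phosphatase, stood at 4.92, 7.96 and 5.23 on B5 and at 101, 113 and 124 on NAA. Of the 12 genes of phosphate, sulphate and metal nutrition it was the 1 called higher and APS3 the 1 called lower, shares of 8.33% each that lie near the background. Of 9 genes for the autophagosome protein ATG8, 3 rose and none fell, also without NAA array 2. ATG8G had a log2 difference of 1.03, ATG8H of 0.86 and APG8A of 0.52. Serine carboxypeptidase-like genes moved in both directions, with 3 of 29 called higher (10.3%) and 5 lower (17.2%). Over all genes the shares were 9.69% and 8.41%, so the higher calls were near the background. Here scpl48 read 378, 301 and 317 on B5 and 1417, 1376 and 1391 on NAA, and scpl28 and scpl20 had log2 differences of 2.26 and 1.92. By contrast, scpl31 went from 81.7, 66.7 and 58.1 to 7.77, 8.55 and 8.37, with no overlap (log2 difference -1.80 ± 0.09, adjusted p = 3.28e-06, limma).

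Dehydration-related transcripts rose in part. DI21, a drought-induced gene, read 853, 662 and 599 on B5 and 2357, 2882 and 1780.2 on NAA, and AT2G46140, annotated as LEA27, went from 304 ± 57.1 to 992 ± 165 (SD, n = 3 each). LTI30, a dehydrin, stood at 989.8, 1267 and 927 on B5 and at 2485, 2074 and 2237 on NAA. These were 3 of the 15 measured genes of abscisic acid and dehydration that were called, all higher, with a median log2 difference of 0.03. COR15A and COR47 were not among them, with log2 differences of 0.95 and 0.49 and adjusted p of 0.211 and 0.148 (limma).

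Genes named for sulphur or methionine moved in both directions. Of 13 genes with methionine in their names or synonyms 2 were called higher and 4 lower, and of 13 with sulfur 1 and 2, both searched after their values were seen. HMT-1 and MMT, the homocysteine and methionine methyltransferases of the S-methylmethionine cycle, had log2 differences of 1.53 ± 0.14 and 0.99 ± 0.09. STR18, a sulfurtransferase, read 85.1, 91.2 and 77.3 on B5 and 411, 506 and 360 on NAA. MSRB6, a methionine sulfoxide reductase, fell from 258, 165 and 178 to 59.7, 65.5 and 29.9. APS3, an ATP sulfurylase of sulphate assimilation, fell from 366, 378 and 395 to 204, 179 and 237. In phenolic metabolism, FACT, which joins fatty alcohols to caffeate, had a log2 difference of 1.35, and AT3G13610, annotated as F6'H1 of coumarin synthesis, one of 1.61. UGT84A4 and UGT72E2, glucosyltransferases of phenylpropanoids, had differences of 1.32 and 1.26. In their family 4 of 52 genes rose (7.69%) and 6 fell (11.5%), near the background of 9.69% and 8.41%. The flavonoid list had 1 of 8 genes called higher and 1 lower, shares of 12.5% each against 9.69% and 8.41% of all genes. CHIL, a chalcone isomerase-like protein, rose from 306 ± 91.5 to 723 ± 136 (SD, n = 3 each). UGT78D1, a flavonol glycosyltransferase, read 198, 234 and 315 on B5 and 133, 132 and 153 on NAA. Its log2 difference of -0.75 had an adjusted p of 0.0362 (limma), which rose to between 0.0537 and 0.118 without B5 array 2 or 3 or any 1 NAA array. Of 4 phenylpropanoid genes 1 was called higher, and none without B5 array 1, 2 or 3 or NAA array 1 or 3. Of 14 glutathione transferases, ATGSTF13 rose from 9.21 ± 2.07 to 90.9 ± 19.8, while GSTU18 read 457, 400 and 310 on B5 and 132, 132 and 118 on NAA, and GSTU20 fell by 0.80 on the log2 scale. NDB2, an alternative NADH dehydrogenase of mitochondria known from antimycin A responses, was not called without antimycin A, at 104, 119 and 117 on B5 and 160, 121 and 206 on NAA (adjusted p = 0.184, limma).

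Further regulators changed. Among them bZIP44 read 125, 114 and 132 on B5 and 521, 497 and 424 on NAA. The MADS box factors AGL19 and AGL42 had log2 differences of 1.44 and 1.11. Of the 42 genes of their family 32 stayed below 16. In each direction 4 were called (9.52%), near the background of 9.69% higher and 8.41% lower. CLE44 and CLE41, both precursors of the TDIF peptide of vascular stem cells, moved oppositely, the first from 126 ± 15.7 to 292 ± 16.8 and the second from 398 ± 9.96 to 255 ± 30.6 (SD, n = 3 each). RALFL22, a RALF-like peptide gene, had a difference of 0.89 and AT1G59740, annotated as the transporter NPF4.3, one of 1.37. RR16, a type-A response regulator of cytokinin, read 40.2, 36.5 and 36.5 on B5 and 9.60, 14.9 and 12.3 on NAA (log2 difference -0.93 ± 0.06, adjusted p = 1.87e-05, limma). It was 1 of 2 called genes among 8 of cytokinin, both lower.

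ORA47, STZ and WRKY22, transcription factors known from stress responses, were lower on NAA. ORA47, an AP2 factor of the jasmonate pathway, read 162, 132 and 117 on B5 and 23.6, 24.5 and 31.4 on NAA (log2 difference -1.84 ± 0.16, adjusted p = 8.23e-05, limma). STZ, the zinc finger factor ZAT10, read 422, 574 and 455 on B5 and 197, 162 and 321 on NAA. Its log2 difference of -1.08 had an adjusted p of 0.0199 (limma), which was 0.0734 without B5 array 2, 0.0718 without NAA array 1 and 0.0675 without NAA array 2. WRKY22 was 92.7, 44.7 and 40.4 on B5 and 15.3, 14.5 and 22.9 on NAA, a log2 difference of -1.11, and its adjusted p of 0.0147 (limma) became 0.0539 and 0.0505 without NAA array 1 or 2. The WRKY family had members in both directions, since WRKY6 and WRKY47 rose by log2 differences of 0.86 and 0.62 among 7 measured genes. THI2.1, a thionin of the jasmonate response, read 38, 62.5 and 230 on B5, so that 1 array carried much of its mean, and 11.2, 20.9 and 19.8 on NAA. Its adjusted p of 0.0327 (limma) lay between 0.0502 and 0.110 without B5 array 2 or any 1 NAA array.

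Genes of tetrapyrrole synthesis, the route to chlorophyll and haem, were among the falls. CHLI2, a subunit of the magnesium chelatase that opens the chlorophyll branch, read 391, 344 and 341 on B5 and 110.0, 112 and 115 on NAA. The NAA arrays lay within a narrow range far below B5 (log2 difference -1.55 ± 0.11, adjusted p = 2.69e-05, limma). CHLM, the methyltransferase of the next step, stood at 2852, 2646 and 2302 on B5 and at 1078, 967 and 1258 on NAA, a log2 difference of -1.23 ± 0.12. HEME1 and HEME2, the uroporphyrinogen decarboxylases, fell from means of 420.1 ± 67.8 to 139 ± 14.6 and of 1231 ± 93.6 to 505 ± 44.3 (SD, n = 3 each). At the start of the pathway, GSA1, a glutamate-1-semialdehyde aminotransferase, fell by 1.09 and HEMB1, which makes porphobilinogen, by 1.04 on the log2 scale. At its end PORB, the light-dependent protochlorophyllide oxidoreductase, fell from 4663 ± 204 to 2241 ± 268 (SD, n = 3 each). Of 11 measured genes of chlorophyll and carotenoids, 7 fell and none rose, with a median log2 difference of -1.06, and the same count was found without NAA array 2. HEMA2 and HEMA3, glutamyl-tRNA reductases at means of 30.1 and 5.94 on B5, were among the 4 not called.

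Nuclear genes of the photosynthetic apparatus were lower too, with 9 of 14 called lower, none higher and a median of -0.49, and 8 called lower without NAA array 2. PSB27, which helps assemble photosystem II, fell from 4016, 3939.8 and 3368 to 1792, 1603 and 2026. The Calvin cycle enzymes SBPASE and PRK fell by 0.93 and 0.92 on the log2 scale, PSBY of photosystem II by 0.78 and ATPC1, the gamma subunit of the plastid ATP synthase, by 0.67. RCA, rubisco activase, was among the brightest, at 12132 ± 849 on B5 and 8511 ± 629.5 on NAA (SD, n = 3 each). Its log2 difference of -0.51 had an adjusted p of 0.0238 (limma), which rose to between 0.0576 and 0.0801 without B5 array 1 or 2 or NAA array 1 or 2. The antenna genes LHCB4.1 and LHCB4.2 read lower on every NAA array than on any B5 array but did not pass the test, with log2 differences of -0.47 and -0.42 and adjusted p of 0.0873 and 0.178 (limma). LHCB4.3 and ATPC2, the dim gamma subunit gene, overlapped between the media.

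Transcripts for proteins that build or regulate the thylakoid membrane also fell. LPA1, LPA2, LPA19 and PAM68, which assemble photosystem II, fell by 0.81, 1.06, 0.99 and 0.96 on the log2 scale. LPA1 had the lowest adjusted p of them (1.47e-05, limma), from 100, 103 and 95.8 to 47.4, 47.2 and 55.3. TROL, a thylakoid anchor for ferredoxin reductase, stood at 1434, 1401 and 1387 on B5 and at 662, 585 and 706 on NAA. TAPX, the thylakoid ascorbate peroxidase, read 686, 567 and 612 on B5 and 260, 277 and 228 on NAA, a log2 difference of -1.23 ± 0.12. Among nuclear genes whose names or synonyms mention the chloroplast or its parts, a grouping made after their values were seen, 26 of 35 fell and none rose (23 without NAA array 2).

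The plastid NADH dehydrogenase-like complex, which carries cyclic electron flow around photosystem I, had 7 of 8 measured nuclear genes called lower and a median of -0.90. Its genes were grouped after their values were seen, so this count is a description. NdhL read 405, 371 and 410.3 on B5 and 143, 123 and 148 on NAA, and NdhN 536, 654 and 537 on B5 and 202, 193 and 225 on NAA. Both subunits fell with no overlap, by 1.42 and 1.40 on the log2 scale. CRR41, an assembly factor, fell by 1.25 and CRR21, an RNA editing factor of this complex, by 0.95. NdhS fell by 0.56, with an adjusted p of 0.0447 (limma) that ranged from 0.0585 to 0.135 when any 1 of the 6 arrays was left out. CRR22, below 10 on all 6 arrays, was not called. With 1 array left out the count was 4 without B5 array 2 or 3 or NAA array 1 or 3, and 5 without B5 array 1 or NAA array 2.

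Plastid thioredoxins moved in both directions, mostly down. Of 10 thioredoxin and glutaredoxin genes, grouped after their values were seen, 5 were called lower, 1 higher and 4 not called. THX, thioredoxin x, read 2016, 2078 and 2028 on B5 and 1035, 929 and 1124 on NAA (log2 difference -0.98 ± 0.09, adjusted p = 0.000131, limma). NTRC, a thioredoxin reductase with its own thioredoxin domain, stood at 732, 734 and 798 on B5 and at 367, 320.1 and 384 on NAA. The y-type thioredoxins parted, since ty2 fell from 1409.6, 1347 and 1277 to 633, 629 and 662 while the dimmer TY1 rose from 40.2, 31.0 and 34.1 to 59.6, 64.9 and 49.5. TRXF2 and ATHM2, thioredoxins f2 and m2, fell by 1.06 and 0.66 on the log2 scale.

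Transcripts of the plastid genome itself were measured for 69 genes, of which 34 fell, none rose and 35 were not called, with a median of -0.68. With 1 array left out the falls numbered from 25, without NAA array 1, to 39, without NAA array 2. The plastid-encoded genes described here were chosen after their values were seen. Among them are the plastid ribosome genes rpl14 and rpl16, which have adjoining locus numbers. The gene rpl16 read 2844, 2474 and 2069 on B5 and 722, 707 and 1079 on NAA, and rpl14 read 4079, 3209 and 3250.0 on B5 and 1201, 1359.5 and 1130.0 on NAA. Their log2 differences were -1.56 ± 0.28 and -1.50 ± 0.22. The large subunit of rubisco, rbcL, fell by 0.79, from 1173, 1181 and 1312 to 735, 711 and 653. For psbA, the D1 protein of photosystem II, the media overlapped, at 3873, 4942 and 5170.2 on B5 and 3332, 5250.0 and 4084 on NAA. Plastid transcripts carry few poly(A) tails, and the labels do not say how the labelling took them up.

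Leaf regulators were lower too. YAB3 and YAB5, YABBY factors of leaf and flower organs, fell from 55.0, 42.4 and 54.4 to 19.7, 22.8 and 24 and from 81.4, 101 and 90.3 to 41.0, 44.2 and 48.0. TCP15, a factor of leaf growth, fell from 65.8, 109 and 98.1 to 40.3, 32.3 and 42.9. None of these 3 overlapped between media, as was so for 37.2% of all genes, and they were grouped after their values were seen. PHV, a homeodomain factor of leaf polarity outside that group, overlapped between media, at 129, 137 and 152 on B5 and 156, 143 and 158 on NAA (adjusted p = 0.552, limma). STOMAGEN, a peptide made in the leaf mesophyll that raises stomatal density, read 546, 581 and 496 on B5 and 219.6, 275 and 149.9 on NAA (log2 difference -1.31 ± 0.26, adjusted p = 0.00731, limma). The stomatal factors SPCH and MUTE stayed below 6 on all 6 arrays, and FMA, the factor FAMA, was lower on each NAA array (13.8, 17.4 and 21.8) than on any B5 array (24, 40.5 and 24.3) at an adjusted p of 0.0539 (limma). Without NAA array 2 the counts of called Aux/IAA, LBD, XTH, dehydration, thioredoxin and leaf identity genes were the same, while TBL genes had 5 higher and 1 lower, serine carboxypeptidase-like genes 3 and 4, glycosyltransferases 4 and 3, SWEET genes 1 and 1 and jasmonate genes 1 and 2. Other single arrays moved some of these counts as far, with jasmonate genes at 1 and 2, serine carboxypeptidase-like genes at 3 and 3, glycosyltransferases at 3 and 2 and MADS box genes at 2 and 3 without NAA array 1. Glycosyltransferases stood at 5 and 2 without B5 array 3, SWEET genes at 1 and 1 without B5 array 1 or 3 or NAA array 1 and at 2 and 1 without NAA array 3, and 1 dehydration gene was called lower without NAA array 3. Of the cytokinin genes only 1 was called without B5 array 1 or 3 or NAA array 1 or 3, and a second histone gene was called, lower, without B5 array 2 or 3. The 3 root hair genes were thus higher, and the 3 YABBY and TCP factors lower, in the same seedlings, and the part that organ proportions have in either was not tested.

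**Figure D3:**
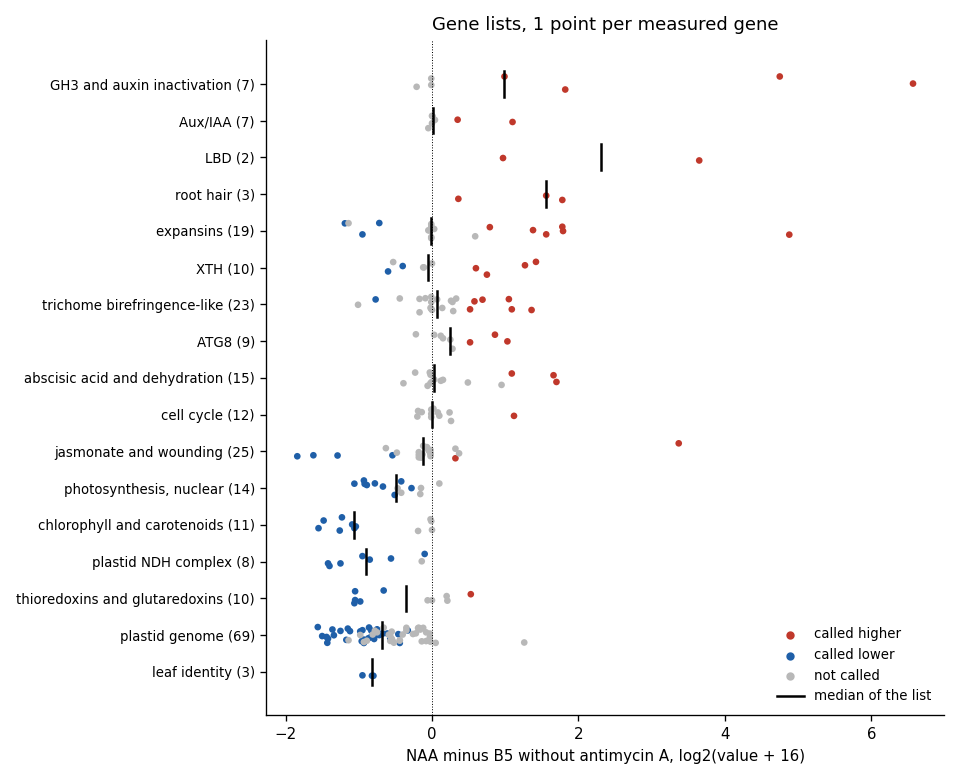
Log2 differences, NAA minus B5 without antimycin A, of every measured gene of 17 lists, 1 point per gene, with the list's median as a black bar. Points of the GH3, LBD and root hair lists lie mostly to the right, those of the chlorophyll, NDH, plastid genome and leaf identity lists to the left, and expansins on both sides of 0.

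**Figure D4:**
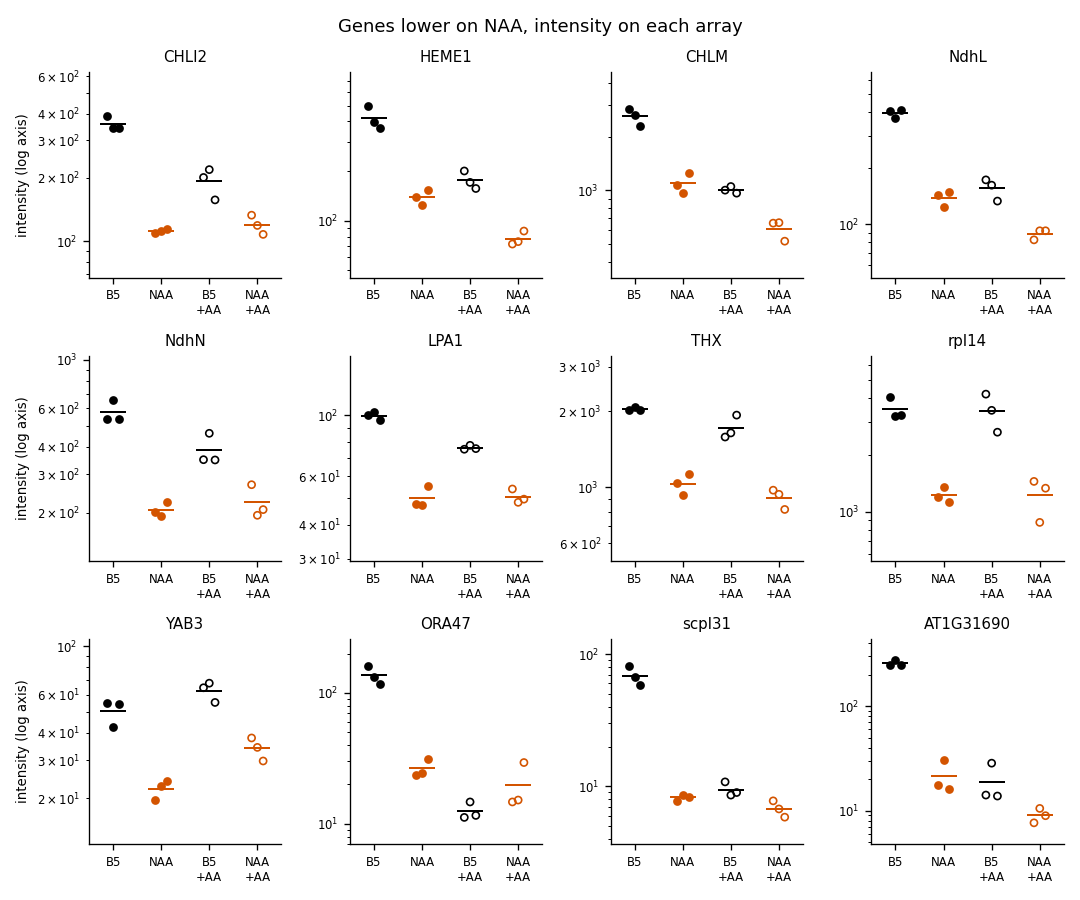
Intensity (log axis) of 12 genes lower on NAA on each array: filled points without and open points with antimycin A, black for B5 and orange for NAA, with a line at each group mean. In all 12 panels the filled NAA points lie below the filled B5 points, and in the ORA47 panel all open points lie below 32.

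Many of the steepest changes belong to genes known here by locus code alone, for which the annotation used gives no symbol. AT5G47550 read 223, 209 and 217 on B5 and 3476, 3876 and 3836 on NAA, with the lowest adjusted p among the genes described (4.86e-08, limma). AT5G52390 went from 25.4, 49.9 and 38.6 to 1204, 815 and 1515, and AT3G61930 from 10.9, 6.64 and 5.96 to 319, 300.0 and 348. AT5G64100, AT1G30760, AT4G22610 and AT1G50060 had log2 differences of 3.76, 3.56, 3.49 and 3.26, all with groups that did not overlap. AT5G01870 differed by 2.91 at a high level, from a mean of 562 ± 157 to 4293 ± 823 (SD, n = 3 each). Downward, AT1G31690 went furthest of the named genes, from 251, 277 and 250.4 to 17.5, 30.5 and 16.2 (log2 difference -2.90 ± 0.18, adjusted p = 1.18e-05, limma). AT1G66100 followed with 636, 258 and 490 on B5 and 74.9, 100 and 56.1 on NAA. AT1G06830, AT2G43550 and AT5G18600 fell by 1.95, 1.73 and 1.72 on the log2 scale, and AT2G43550 was the brightest of them, at 2457 ± 124 on B5 (SD, n = 3).

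The antimycin A-treated arrays measured the NAA effect a second time, on samples that share no array with the first. Both comparisons used the same estimate of spread for each probe set, from all 12 arrays, so their calls were not independent tests. There 4994 probe sets (22%) were called, 2779 higher (12.2%) and 2215 lower (9.74%). Both treated arrays numbered 2 also had raised 3' to 5' ratios, of 26.5 on B5 and 28.7 on NAA for GAPDH, against 10.1 to 17.2 on the other treated arrays. Of the 2437 higher without antimycin A, 1211 were called higher again (49.7%, which is 43.6% of those higher with antimycin A) and 100 were called lower. Of the 2200 lower, 923 were called lower again (42%, and 41.7% of those lower with antimycin A) and 91 higher. Probe sets chosen as higher without antimycin A had a median log2 difference of 0.56 there and 0.32 with it, and those chosen as lower had -0.73 and -0.31. Choosing by the treated arrays gave the mirror picture, 0.62 against 0.29 and -0.66 against -0.26, so that each median was larger on the arrays that chose its members. Across all 22746 probe sets both effects correlated at 0.559, a description over probe sets of 2 sets of arrays.

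The difference between both effects, tested as an interaction in the same fit, was called for 2168 probe sets (9.53%), and for 8.45% of genes. Without NAA array 2 it was called for 1705 probe sets, and without the treated array 2 of B5 or NAA for 2045 or 1674. It was called for 621 of the 2437 higher probe sets (25.5%), in 512 of them with the effect nearer to 0 or reversed under antimycin A, and for 615 of the 2200 lower ones (28%), in 578 of them likewise. The choice by the untreated arrays, which both effects' difference contains, favours that direction. EXPB2 lost most of its rise, with 5.0, 5.41 and 5.58 on B5 and 11.9, 25.4 and 13.7 on NAA under antimycin A (difference of the effects -4.27, adjusted p = 0.000102, limma). GH3.3 read 1071, 1164 and 1603 on B5 and 6042, 6366 and 8034 on NAA under antimycin A, high on both media (difference -4.16, adjusted p = 0.000121, limma). AT3G22060 turned over, with 149, 152 and 147 on NAA above 21.8, 15.1 and 21.3 on B5 without antimycin A, and 172, 167 and 224 on NAA below 838, 608 and 956 on B5 with it. AT3G61930 and AT4G22610 had differences of -2.80 and -2.74. In the other direction, AT3G15450, AT3G15630, AT5G19120 and AT4G33666 were lower on NAA without antimycin A and higher with it, with differences of the effects of 3.17, 3.00, 2.63 and 2.48. AT1G31690 differed by 2.45, from means of 18.8 on B5 and 9.04 on NAA under antimycin A, where its level was low on both media.

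Among auxin genes the effect moved both ways. IAA18, not called without antimycin A, was called lower with it (log2 difference -0.34, adjusted p = 0.0104, limma), and the difference of its effects missed the threshold (adjusted p = 0.056, limma). IAA29, IAA30, LBD16 and HAT2 had larger log2 differences with antimycin A (2.23, 1.80, 2.22 and 1.78), and the difference of the effects was called for each, with adjusted p of 0.002, 0.000183, 0.00184 and 0.0215 (limma). LBD29, PUCHI and WES1 had smaller ones (2.52, 0.36 and 3.62), also with a called difference (adjusted p of 0.00221, 0.00164 and 0.013, limma). AT2G19970 had 6.33 without and 6.34 with antimycin A, while PR-1-LIKE had 6.27 and 3.97. Of the 11 genes of chlorophyll and carotenoids, 7 were called lower with antimycin A too, where 8.8% of all genes were. The difference was called for CHLI2 (0.94, adjusted p = 0.00687, limma) and not for HEME1, HEME2, CHLM, GSA1, HEMB1 or PORB. Under antimycin A 3 of the 8 NDH genes and 37 of the 69 plastid-encoded genes were called lower, and 2 of the 3 root hair genes higher, where 10.5% of all genes were.

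**Figure D5:**
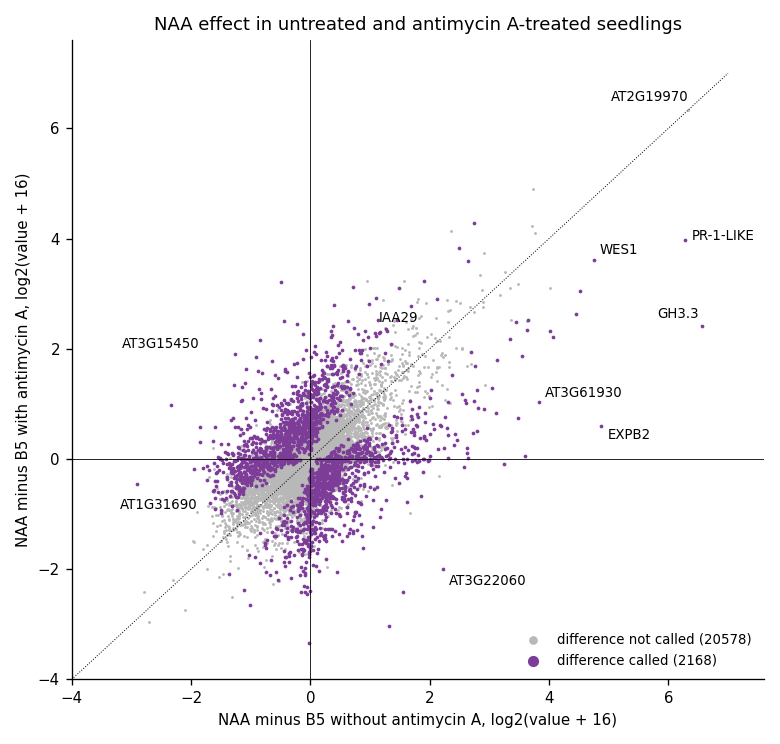
NAA effect with antimycin A against the NAA effect without it, both on the log2(value + 16) scale, 1 point per probe set, with the line of equal effects dotted. The 2168 probe sets with a called difference are purple, among them GH3.3 and EXPB2 below the line, while AT2G19970 lies on it.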

How the data were processed

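Seedlings were profiled on Affymetrix ATH1 arrays from 400 ng of total RNA in biological triplicate, per the labels' protocols. Linear intensity was deposited for all 12 arrays in a single table. MAS5, RMA and Partek are named, with no role, per the submitters' processing notes, so the tool behind the values is unknown here. No detection call was used, and the number of arrays limits the precision.

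The table has 22810 probe sets, and its 64 controls served only for the 3' to 5' ratios. Exactly 1 gene is annotated for 13513 probe sets, more than 1 for 503, and no name is given here for 8730. Symbols came from RefSeq's TAIR10.1 table through gene identifiers (13436 matched), which gave 13350 genes, 11798 of them printed by locus code. The brightest probe set over 12 arrays stood for a gene, and none of the 152 genes with several probe sets had called sets of opposite sign. HRGP1 was read through a probe set whose probes may bind related transcripts.

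Values were taken as log2(value + 16) and fitted in limma 3.58.1 (R 4.3.3) with 1 mean for each of 4 groups over all 12 arrays (8 residual degrees of freedom), moderated by eBayes. Contrasts were NAA against B5 without antimycin A, the same with antimycin A, and their difference, each two-sided with Benjamini-Hochberg adjustment over 22746 probe sets and called at 0.05. The fit was tested on simulated data.

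The comparison, the gene lists and the rule for named genes were chosen with earlier results of these data known. The 56 lists were also trimmed after values were seen. Lists built from words of gene descriptions and those of reference genes, cytosolic ribosomal and mitochondrial genes were dropped, and symbols that stood for another gene were removed. A further 14 families were added after their values were seen, picked from 20 keyword searches and 47 symbol stems, so their counts support nothing beyond description. The rule named the 15 largest rises and falls among called genes without overlap, up to 6 members of a list by adjusted p, and the 5 largest called differences each way. It gave 239 genes, of which 102 are described, with preference for calls that did not hang on 1 array, and 64 more were chosen after their values were seen. Some genes are not reported here. Alternatives were other pseudocounts (1 and 64), filters on mean intensity (32 and 100), quantile normalization, median centring, separate fits, another variance model, array weights, a replicate block and leaving out each array.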

Additional observations from a re-analysis of the deposited data

Results flagged for a closer look

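The NAA effect differed between seedlings without and with antimycin A, by the test of the difference in the limma fit, for 2168 probe sets and for 54 of the 166 genes described. Each value below is that difference on the log2(value + 16) scale, with minus without antimycin A. In 49 of the 54 the effect was nearer to 0 or reversed with antimycin A, a direction that choosing genes by the untreated arrays favours, and in 5 it was larger.

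Among auxin and root genes, the difference was -4.16 for GH3.3, -1.14 for WES1, -1.13 for LBD29 and -0.64 for PUCHI. It was positive for IAA29 (1.13), IAA30 (1.46), LBD16 (1.25) and HAT2 (0.48), and these 4 and the dehydrin LTI30 (1.19) are the 5 genes with a larger rise under antimycin A. Among wall genes that rose without antimycin A, those with a called difference had negative ones, with EXPB2 at -4.27, XTH18 at -2.01, sks16 at -1.63, EXPA7 at -1.58, GH9C1 at -1.42, TBL41 at -1.22, XTH33 at -1.06 and XTH26 at -0.61. Differences were positive for EXPB3 (1.63) and EXPB1 (0.69), both lower on NAA, and for EXPA8 (2.22), which had not passed the test without antimycin A.

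Other risers with a called difference were AT3G22060 (-4.22), AT3G61930 (-2.80), AT4G22610 (-2.74), PR-1-LIKE (-2.30), SAG29 (-2.27), AT5G52390 (-1.81), AT5G47550 (-1.68) and AT1G30760 (-1.68). The same held for ATGSTF13 (-1.52), PAP20 (-1.37), scpl20 (-1.26), FACT (-1.21), RALFL22 (-1.14), bZIP44 (-0.89), scpl48 (-0.78) and UGT84A4 (-0.70). Among genes lower on NAA, the difference was 3.17 for AT3G15450, 3.00 for AT3G15630, 2.63 for AT5G19120, 2.48 for AT4G33666, 2.45 for AT1G31690, 2.15 for ORA47 and 1.77 for AT1G06830. It was 1.65 for UGT78D1, 1.64 for scpl31, 1.49 for MSRB6, 1.27 for TCP15, 0.94 for CHLI2, 0.89 for GSTU18, 0.71 for NdhL, 0.70 for RR16, 0.69 for APS3, 0.66 for CLE41 and 0.34 for LPA1. With 3 arrays a group, no group was tested for a single deviating array.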

How the results depend on the processing

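The count of probe sets called for the NAA effect without antimycin A stayed within 1.5 times of 4637 in each alternative but median centring, which gave 12002 calls, and 13365 among treated seedlings. Under that centring the dim genes IAA31 and IAA33 turned to differences of -0.08 and -0.09 and were called. Leaving out 1 array gave 3400 to 4671 calls without antimycin A, 3934 to 4518 with it and 1578 to 2325 for the difference, with the spread pooled over all groups. Pairing of the samples by replicate number was not clear. Deviations of same-numbered B5 and NAA arrays correlated at 0.29, -0.1 and 0.06, and only for number 1 was the own number the highest match. The number 2 arrays with raised 3' to 5' ratios did deviate together, NAA at 0.35 with treated B5 and 0.31 with treated NAA, and these at 0.26. The replicate block gave 4627, 5012 and 2159 calls and among the 166 genes described ended the call of UGT78D1 (adjusted p = 0.069). Of these genes, a separate fit of the 6 arrays ended the call of 9 (among them IAA30, EXPA9, APG8A and AT3G15630, at adjusted p of 0.0571 to 0.0689), a pseudocount of 64 that of 2, a pseudocount of 1 that of UGT78D1 and quantile normalization that of 1, while leaving out an array ended between 3 and 8. The genes described had been chosen with preference for calls that did not hang on 1 array. The losses among them are thus no measure for other genes. Calls were also gained, for FMA in 6 alternatives (adjusted p of 0.0109 to 0.0456, limma), LHCB4.1 in 4 (0.0185 to 0.0325) and EXPA8 in 3 (0.0133 to 0.0216). The causes were not tested. With 36.5% of probe sets below 16 on all 6 arrays, an absent call says little for dim transcripts.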
